A study of Mus musculus with 30 samples.

Results

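The liver response of wild type mice to 1,4-dichlorobenzene (DCB) was described from 6 of the 30 arrays of the study, 3 from DCB-treated and 3 from corn oil-treated animals. The arrays were chosen by their labels alone, and every gene on them was considered. The mice were adult males on a C57BL/6J background (strain label C57BL). DCB was given by oral gavage at 600 mg/kg each day for 3 days, and the controls received corn oil for 3 days (DCB dose 0 mg/kg). Livers were collected one day after the treatment period, and total RNA was hybridised to Affymetrix arrays after labelling with biotin by the 3' IVT Express protocol. Wild type mice carry the mouse receptors CAR and PXR. For comparison, DCB was also given at the same dose and for the same time to hCAR/hPXR mice, in which human CAR and PXR take the place of the mouse receptors, and to CARko/PXRko mice, which lack both. Each of these genotypes had 3 DCB and 3 corn oil arrays of its own.

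CAR (gene symbol Nr1i3) and PXR (Nr1i2) are nuclear receptors of hepatocytes that respond to foreign chemicals and switch on oxidation, conjugation and transport genes, with the cytochrome P450 gene Cyp2b10 as the usual readout of CAR in mouse liver. NRF2 is a separate transcription factor that is released from its repressor KEAP1 by electrophiles and oxidants. It binds antioxidant response elements and drives glutathione, quinone reductase, carbonyl reductase and proteasome genes. Heat shock factors and the unfolded protein response form further branches that raise chaperones when proteins misfold. DCB is a chlorinated benzene used in moth repellents and toilet deodorants, and is oxidised in the liver to chlorinated phenols and quinones.

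Values are log2 probe set signals. Differences are DCB minus corn oil on the log2 scale with the standard error of the fitted contrast, so that a difference of 1 is a 2-fold change. A gene was called when its adjusted p in limma was under 0.05 over all 12795 genes tested, and "rose" and "fell" are used for called genes only. The design text states 5 mice per group, and each group has 3 arrays. Nothing in the labels ties an array to its own animal, and p-values therefore rest on the variation among arrays, part of which may be technical. The number of arrays limits the precision. This variation was estimated in one fit of all 30 arrays in 10 groups, so the standard errors are not the spread of the 6 wild type arrays alone.

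The 6 arrays were alike in scale, with medians of 5.39 to 5.42. Correlations over the 12795 genes tested were 0.986 to 0.995 among corn oil arrays, 0.982 to 0.986 among DCB arrays and 0.973 to 0.984 between the groups. DCB replicate 1 lay farthest from the controls, at 0.973 to 0.975. The 8 hepatocyte markers measured had a median signal of 14.70 to 14.78 on the 6 arrays and a median difference of 0.0034. The skeletal muscle markers found on a few arrays of other groups had a median signal of 5.13 to 5.37 here, under the array median, and a median difference of 0.03 over 16 genes.

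More genes rose than fell under DCB. Of 12795 genes, 94 were called (0.735%): 78 rose (0.610%) and 16 fell (0.125%). Across all genes the median difference was -0.0093, and 48.1% of genes had a positive difference. Of the rises, 35 were at least 2-fold and 14 at least 4-fold, and 43 were under 2-fold. Only 2 of the 16 falls, Glul and 1700001C19Rik, reached 2-fold. In all 94 the DCB arrays lay wholly outside the range of the corn oil arrays. Over all genes tested that held upward for 10.2% and downward for 11.5%.

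**Figure D1:**
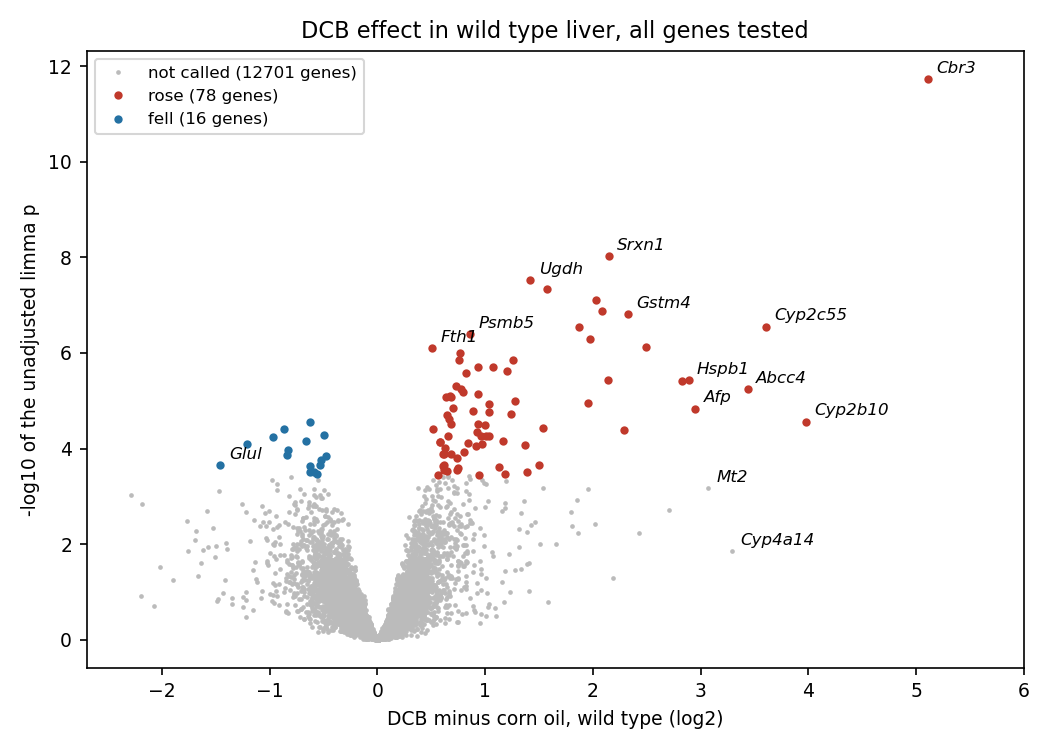
Difference between DCB and corn oil in wild type liver (x axis, log2) against the -log10 of the unadjusted limma p (y axis) for 12795 genes. The 78 genes that rose are red and the 16 that fell are blue; Cbr3 stands alone at the upper right, while Mt2 and Cyp4a14 have differences above 3 without a call.

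The calls rested unevenly on the arrays. Among the 78 rises the highest DCB value was on replicate 1 for 48 genes, on replicate 2 for 17 and on replicate 3 for 13, and the lowest was on replicate 3 for 45. Of the 16 falls, 13 had their lowest value on DCB replicate 1. On the control side, corn oil replicate 3 was the highest of its group for 41 of the 78 rises. Without DCB replicate 1 the count of called genes was 37, with 1 fall (Tgfbr1). Without corn oil replicate 1, 2 or 3 it was 50, 48 and 62. Whichever of the 6 arrays was left out, 34 genes stayed called, all of them rises. Every other called gene lost its call in at least 1 of these 6 cases. No sign could change there, because the DCB and corn oil arrays of the called genes did not overlap.

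**Figure D2:**
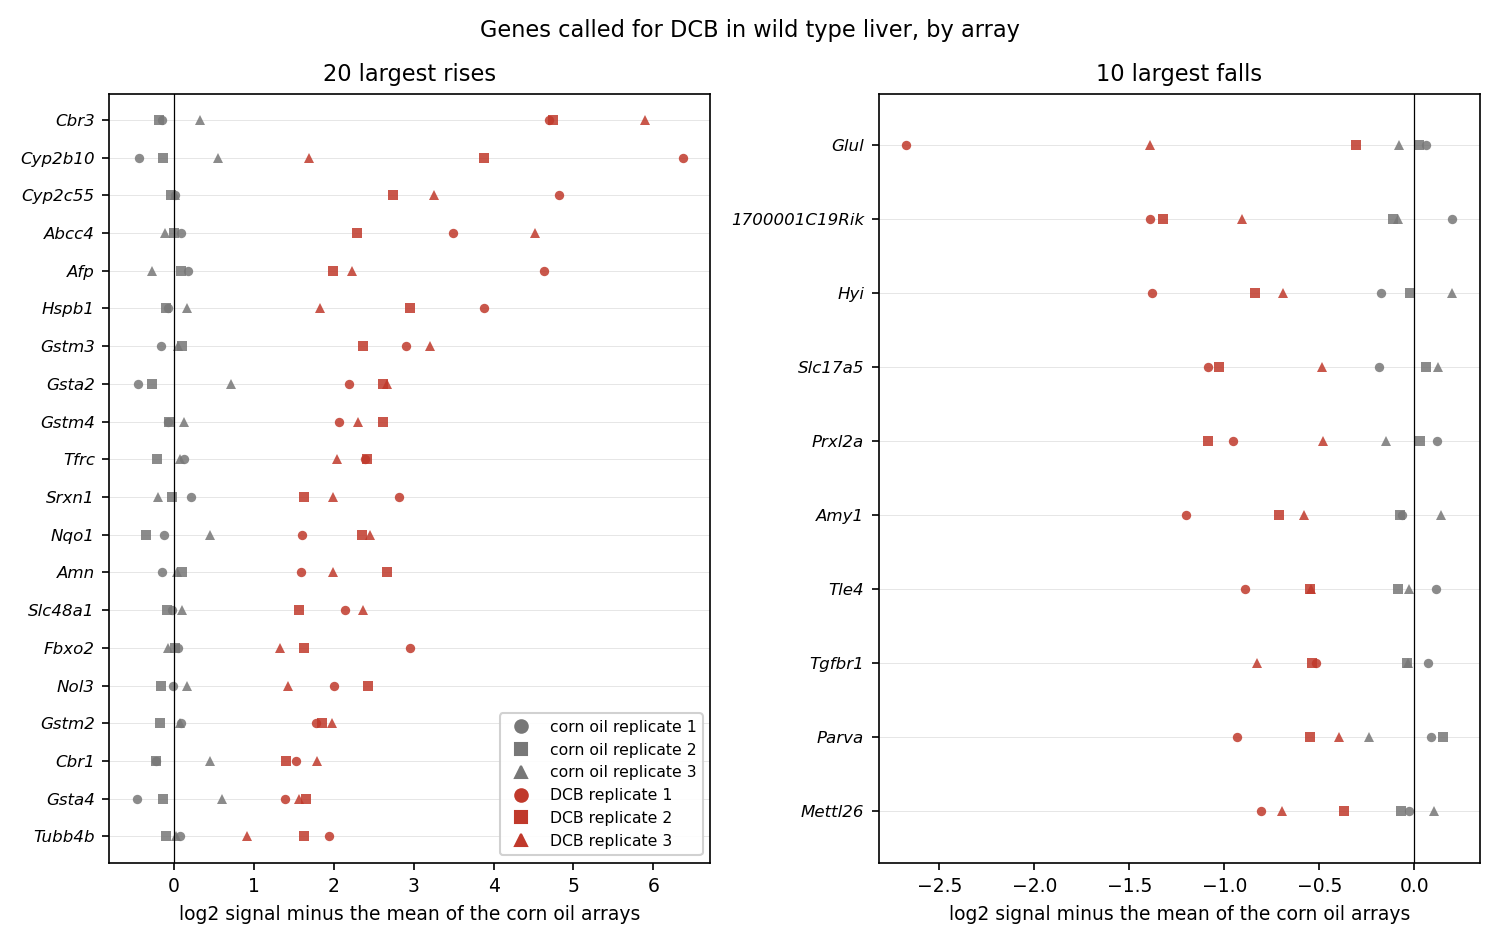
Log2 signal on each array minus the mean of the 3 corn oil arrays (x axis) for the 20 largest rises (left) and the 10 largest falls (right). Grey symbols are corn oil and red symbols DCB arrays, with the shape giving the replicate; the groups do not overlap in any gene, and Cyp2b10, Afp and Glul show the widest spread among DCB arrays.

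The largest difference among the called genes was in Cbr3, a carbonyl reductase that uses NADPH to reduce ketones and quinones. Its corn oil arrays read 5.58, 5.54 and 6.05 and its DCB arrays 10.42, 10.47 and 11.61. All 3 DCB arrays were thus more than 4 log2 units above the highest control, a difference of 5.11 ± 0.38 or 34.5-fold (adjusted p = 2.35e-08). Cbr1, a related carbonyl reductase, read 10.63, 10.62 and 11.30 under corn oil and 12.38, 12.25 and 12.65 under DCB. It rose by 1.58 ± 0.20 (adjusted p = 0.000149). Akr1c19, an aldo-keto reductase, rose by 1.17 ± 0.24, though not without corn oil replicate 1 (1.05) or 2 (0.99) or DCB replicate 1 (1.16) or 2 (1.10). These were the 3 called members of the 38 carbonyl and aldehyde metabolism genes tested. Aldh1a1, which oxidises retinal and other aldehydes, lay 0.54 ± 0.14 higher without a call (adjusted p = 0.0653), with DCB arrays at 14.57 to 14.77 above controls at 14.04 to 14.25. The whole list was mixed, with 11 members wholly above, 7 wholly below and a median difference of 0.11.

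Among the P450 enzymes classed with CAR, a few genes rose. Of 11 CYP2B and CYP2C genes tested, 3 rose and none fell. Cyp2b10 read 5.29, 5.58 and 6.27 under corn oil, close to the array median, and 12.08, 9.59 and 7.40 under DCB. Replicate 1 was highest, and replicate 3 was nearer to the controls than to replicate 1 (3.98 ± 0.77, adjusted p = 0.0083). The call was lost without DCB replicate 1 (2.78, adjusted p = 0.0993) or without corn oil replicate 1 (3.77, adjusted p = 0.0663). The 2 other Cyp2b10 probe sets had differences of 5.74 and 5.88, and the mean of all its probe sets gave 5.20 (adjusted p = 0.0029). Cyp2c55 was tight under corn oil, at 7.86, 7.81 and 7.85, and read 12.66, 10.59 and 11.09 under DCB. It rose by 3.60 ± 0.51 (adjusted p = 0.000405). Cyp2c29, an abundant P450 that metabolises many drugs, rose from 13.31, 13.69 and 13.65 to 14.67, 14.46 and 14.31 (0.93 ± 0.15, adjusted p = 0.0014). Cyp2c55 and Cyp2c29 kept their calls whichever array was left out.

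Other P450 families showed no called change. Of 9 CYP3A genes on the list, 4 were tested. Cyp3a11, the main PXR-responsive P450 of mouse liver, read 14.42 to 14.62 under corn oil and 14.56 to 14.68 under DCB (0.13 ± 0.09, adjusted p = 0.727). The highest signal of any probe set on these 6 arrays was 15.24 to 15.30. Cyp3a11 was thus near the top of the scale in controls, and whether a rise was compressed there was not tested. Cyp3a13 had DCB arrays at 12.12, 11.92 and 11.59, all above controls at 11.11, 11.18 and 11.53, but its difference of 0.61 ± 0.30 missed the threshold (adjusted p = 0.502). Cyp1a1, the classical target of the aryl hydrocarbon receptor, read 8.18 on DCB replicate 1 and 5.77 and 5.96 on the others, against 5.63 to 6.05 in controls. Its difference of 0.82 ± 0.74 was not called. Cyp1a2 differed by 0.43 ± 0.38. The receptor genes themselves were not called: Nr1i3 differed by 0.49 ± 0.21 (adjusted p = 0.396), with overlapping groups at 9.32 to 10.09 and 9.75 to 10.60. Nr1i2 differed by 0.07 ± 0.23, and its sign turned when corn oil replicate 2 (-0.32) or DCB replicate 2 (-0.06) was left out. Of 29 other microsomal oxidation genes, 1 rose: Ephx1, the microsomal epoxide hydrolase, at 11.99, 12.04 and 12.72 under corn oil and 13.41, 13.13 and 13.24 under DCB (1.01 ± 0.21). The Ephx1 call was lost without corn oil replicate 1 or 2 or DCB replicate 1 (0.88, 0.91 and 0.94). On that list 11 members lay wholly below and 5 wholly above the controls.

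Genes for conjugation with glutathione rose in part. Glutathione transferases couple glutathione to electrophiles, and 6 of 20 tested rose: Gstm1, Gstm2, Gstm3, Gstm4, Gsta2 and Gsta4. Gstm3 read 10.57, 10.84 and 10.79 under corn oil and 13.64, 13.10 and 13.94 under DCB, a rise of 2.83 ± 0.47 (adjusted p = 0.00212). Gsta2 went from 10.09, 10.25 and 11.24 to 12.72, 13.15 and 13.20 (2.49 ± 0.37). For Gstm4 the controls read 9.61, 9.63 and 9.82 and the DCB arrays 11.75, 12.30 and 11.99 (2.33 ± 0.32). The 3 DCB arrays of these genes lay within 1 log2 unit of each other, in contrast to Cyp2b10. Gstm2 rose from 9.82, 9.56 and 9.82 to 11.51, 11.58 and 11.71 (1.87 ± 0.26). Gsta4, an enzyme for lipid peroxidation products, read 10.13, 10.45 and 11.19 in controls and 11.99, 12.25 and 12.15 under DCB (1.54 ± 0.30). Its call was lost without corn oil replicate 1 (1.31) or 2 (1.47). Gstm1 rose by 0.94 ± 0.16 from 13.30, 13.46 and 13.39. The median over the 20 genes was 0.57, with 10 wholly above and 1 wholly below the controls. Probe sets annotated to several genes were left out, and remaining cross-hybridisation between these closely related genes was not tested.

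Other conjugation steps had a single called gene. Of 12 glucuronidation genes, 1 rose: Ugdh, which makes UDP-glucuronic acid, the donor for all glucuronidation. It read 12.08, 11.96 and 12.50 under corn oil and 13.66, 13.64 and 13.51 under DCB (1.42 ± 0.18, adjusted p = 0.000128). None of the UDP-glucuronosyltransferases tested, which use this donor, was called. Another 8 of the 20 genes on the list had only probe sets annotated to several genes and were not tested. Ugt2a3 lay 0.95 ± 0.28 lower (adjusted p = 0.145), with DCB arrays at 10.93, 11.79 and 11.44 below controls at 12.25 to 12.45. Among 17 sulfation, acetylation and methylation genes none was called and 6 lay wholly below the controls. Sult1c2 had the smallest p of these, with a difference of -0.96 ± 0.35.

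NRF2 antioxidant and glutathione genes were mostly higher under DCB. Of 16 tested, 5 rose (Srxn1, Nqo1, Blvrb, Gsr and Fth1) and none fell, 14 had all DCB arrays above all controls, and the median difference was 0.67. Srxn1, the sulfiredoxin that repairs over-oxidised peroxiredoxins, read 8.74, 8.51 and 8.33 under corn oil and 11.34, 10.15 and 10.52 under DCB (2.15 ± 0.25, adjusted p = 6.12e-05). Nqo1, a quinone reductase, read 6.69, 6.46 and 7.27 and then 8.42, 9.16 and 9.26 (2.14 ± 0.36, adjusted p = 0.00212). Its lowest DCB value was on replicate 1, as for 11 of the 78 rises. Gsr, which regenerates reduced glutathione, rose by 1.20 ± 0.19 and Blvrb, a biliverdin and flavin reductase, by 1.28 ± 0.23. Fth1, the heavy chain of ferritin, read 14.23, 14.22 and 14.33 under corn oil and 14.77, 14.74 and 14.79 under DCB. Its rise of 0.51 ± 0.08 was small and called (adjusted p = 0.000776). The Fth1 signal was near the highest of any probe set on these arrays (15.24 to 15.30). Whether its rise was compressed there was not tested. These 5 genes kept their calls whichever array was left out. Txn1, thioredoxin, lay 0.48 ± 0.15 higher without a call. Pir, pirin, which is widely listed as an NRF2 target but is not on this list, rose by 1.24 ± 0.23, though not without corn oil replicate 1 (1.10) or 2 (1.16). In the pentose phosphate and NADPH list none of 9 was called. Pgd, which makes NADPH, had DCB arrays at 11.88, 11.05 and 11.75 above controls at 9.78 to 10.48 (1.39 ± 0.46, adjusted p = 0.197).

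Promoters of the called genes were searched for the core of the antioxidant response element, TGACNNNGC, on both strands of the 300 bases from 250 before to 50 after each RefSeq gene start (build GRCm38.p6). Of the 78 genes that rose, 66 had a promoter entry and 11 of these held the core (16.7%), the same share as over the 10290 tested genes with an entry (16.7%, and 14.0% of all 27025 genes). Among proteasome subunits it was 4 of 25 (16.0%), and among NRF2 genes 3 of 13 (23.1%). The upstream matches of Psmb5, Ugdh, Pir and Abcc4 are shown as examples, chosen after the matches were seen. Pir is on none of the gene lists. The match of Srxn1, an NRF2 list member that rose, was not wholly upstream of the start and is not shown. Each window is written along the gene strand with 20 flanking bases where the window allowed, and with the matching letters in capitals.
Psmb5, chr14:54618014-54618062, minus strand: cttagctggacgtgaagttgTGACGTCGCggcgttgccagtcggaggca
Ugdh, chr5:65435946-65435994, minus strand: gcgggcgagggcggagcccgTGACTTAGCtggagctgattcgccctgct
Ugdh, chr5:65435908-65435956, minus strand: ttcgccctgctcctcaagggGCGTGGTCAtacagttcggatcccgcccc
Pir, chrX:164269197-164269245, plus strand: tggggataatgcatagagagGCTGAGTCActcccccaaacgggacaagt
Abcc4, chr14:118706220-118706264, minus strand: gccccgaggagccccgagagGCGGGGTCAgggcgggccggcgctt
Abcc4, chr14:118676932-118676974, minus strand: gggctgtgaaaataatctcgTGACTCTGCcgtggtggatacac
The core reads along the gene strand in Psmb5, in the first Ugdh window and in the second Abcc4 window, and along the opposite strand in the others. In Psmb5 it ended 39 bases before the start, in Ugdh 124 and 86 bases before it, and in Pir 206 bases before it. The Abcc4 windows belong to separate annotated starts of the gene. A match in these letters is a description and was not read as a bound site.

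Transport genes gave one large rise. Abcc4 encodes MRP4, a pump that exports bile acids and conjugates from hepatocytes to blood. It read 6.09, 6.01 and 5.89 under corn oil and 9.49, 8.29 and 10.52 under DCB. All DCB arrays were more than 2 log2 units above the controls (3.44 ± 0.59, adjusted p = 0.00277). It was the only one of 14 efflux pumps called. Abcc3 and Abcc2, related pumps of the sinusoidal and canalicular membranes, differed by 0.64 ± 0.29 and 0.47 ± 0.27 without a call, with non-overlapping arrays in both. None of 11 uptake carriers was called, and 9 of them had negative differences (median -0.32). Slc10a1, the main bile acid importer, differed by -0.52 ± 0.24 (adjusted p = 0.464), and Slco1a1, an organic anion carrier, by -1.22 ± 0.81. Slc22a18 was wholly above the controls at 10.49, 11.01 and 11.10 against 10.04 to 10.29 (0.69 ± 0.21, adjusted p = 0.158).

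A transporter of iron and one of heme rose. Tfrc, the transferrin receptor that brings iron into cells, read 8.54, 8.20 and 8.49 under corn oil and 10.80, 10.83 and 10.45 under DCB, a rise of 2.28 ± 0.45 (adjusted p = 0.0102). The Tfrc call was lost without corn oil replicate 2 (2.18) or DCB replicate 1 (2.23). The mean of all Tfrc probe sets, of which the others were under the filter, gave 0.81 (adjusted p = 0.0504). Slc48a1, a heme transporter of endosomes and lysosomes, read 8.43, 8.36 and 8.56 and then 10.59, 10.01 and 10.82 (2.02 ± 0.27, adjusted p = 0.000202). Alas1, the rate-limiting enzyme of heme synthesis and a known CAR and PXR target, had DCB arrays at 13.57, 13.84 and 12.99 above controls at 11.77 to 12.11, but its difference of 1.54 ± 0.39 was not called (adjusted p = 0.0716). The iron exporter Slc40a1 differed by -0.64 ± 0.25 and the iron hormone gene Hamp by 0.76 ± 0.31, neither called. The list medians were 0.04 over 13 heme genes and -0.10 over 15 iron genes. Amn, which with cubilin takes up vitamin B12 and proteins, was under the array median on all control arrays (5.15, 5.41 and 5.35) and read 6.90, 7.97 and 7.29 under DCB (2.08 ± 0.28).

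The proteasome, the complex that degrades ubiquitin-tagged proteins, was higher as a group. All 31 subunit genes tested had positive differences, from 0.24 to 0.99 with a median of 0.61, and 28 of 31 had all DCB arrays above all controls. By the threshold 11 rose: Psmb2, Psmb3, Psmb4, Psmb5, Psma7, Psmc1, Psmc3, Psmc5, Psmd4, Psmd11 and Psmd13. Psmb5, which carries the chymotrypsin-like activity, read 11.49, 11.50 and 11.80 under corn oil and 12.56, 12.45 and 12.35 under DCB (0.86 ± 0.12, adjusted p = 0.000515). Psmb4, a structural core subunit, rose by 0.77 ± 0.12, Psmd4, a ubiquitin receptor of the regulatory cap, by 0.76 ± 0.12, and the cap ATPase Psmc5 by 0.68 ± 0.12. The subunit shift was smaller on one array. Relative to the control mean, the median over the 31 genes was 0.78 and 0.75 on DCB replicates 1 and 2 and 0.33 on replicate 3, against -0.05, -0.07 and 0.12 on the controls. The count of called subunits moved with the arrays while the signs did not. It was 4 without DCB replicate 1, 5 without DCB replicate 2 or corn oil replicate 2, 7 without corn oil replicate 1, 10 without corn oil replicate 3 and 20 without DCB replicate 3, and all 31 differences were positive in each case. Fitted on the wild type DCB and corn oil arrays alone, 3 were called. With the mean of all probe sets 10 were called, and Psmc1 (0.34), Psmd11 (0.22) and Psmd13 (0.42) were not among them.

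**Figure D3:**
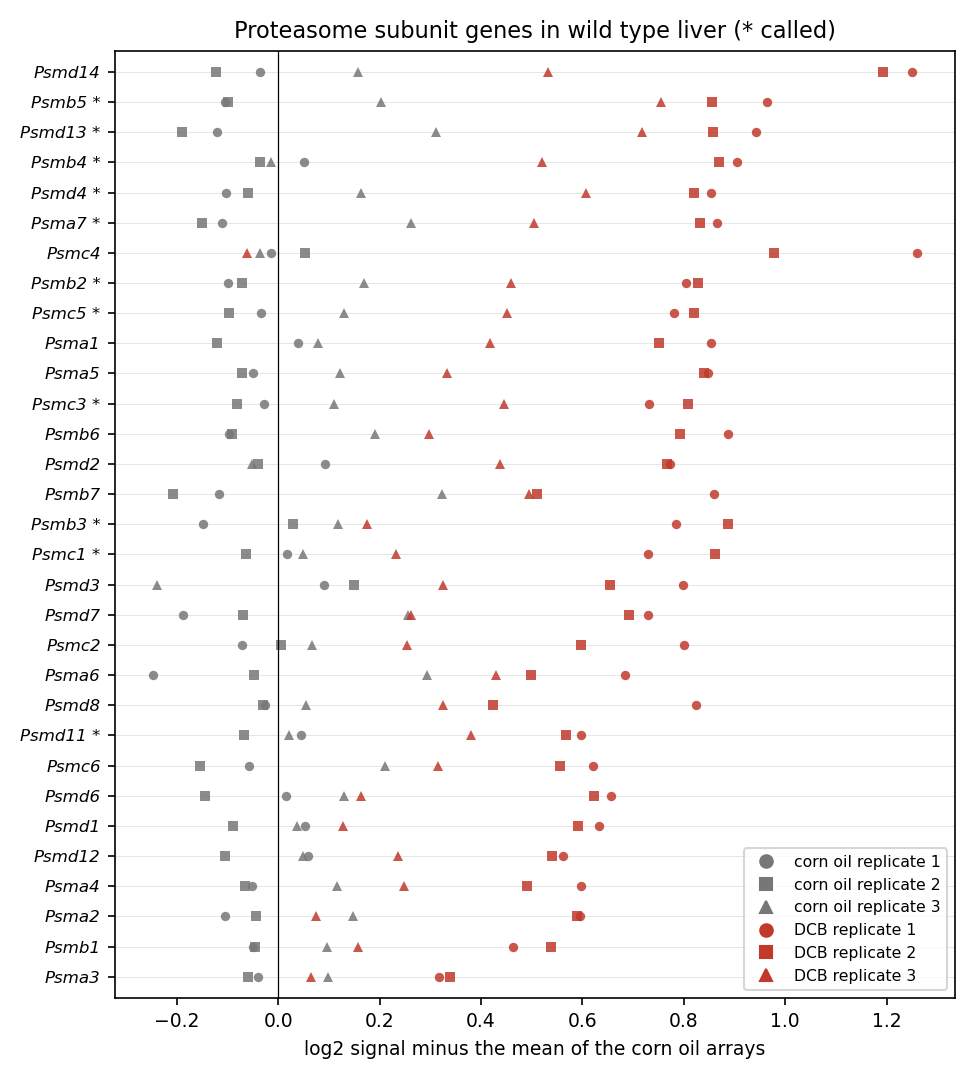
Log2 signal on each array minus the mean of the corn oil arrays (x axis) for 31 proteasome subunit genes, ordered by difference, with an asterisk on the 11 called. Grey symbols are corn oil and red symbols DCB arrays; DCB replicate 3 (triangles) lies nearest to the controls for most subunits.

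Some called genes off the lists are known to act with the proteasome. Psmd5, a chaperone for assembly of the cap, rose by 0.93 ± 0.18, though not without corn oil replicate 2 (0.84) or DCB replicate 1 (0.90). Ube2k, a ubiquitin-conjugating enzyme, rose by 0.67 ± 0.12, and Nsfl1c and Ubxn4, cofactors of the p97 segregase, by 0.73 ± 0.12 and 0.74 ± 0.17. The mean of the Ube2k probe sets gave 0.24 (adjusted p = 0.461). Ubxn4 kept its call in only 1 of the 6 cases with an array left out, and the mean of its probe sets gave 0.80 (adjusted p = 0.0539). Fbxo2, a ubiquitin ligase subunit that recognises glycoproteins, was well under the array median in controls (4.61, 4.57 and 4.48) and read 7.52, 6.19 and 5.89 under DCB (1.97 ± 0.29, adjusted p = 0.000605). These genes are named because they were called. In the immunoproteasome and MHC class I list the values were 0 of 11 called, 4 wholly below the controls and a median of -0.14.

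Cytosolic chaperones rose in part. Hspb1, a small heat shock protein that holds unfolded proteins and stabilises actin, read 9.23, 9.20 and 9.46 under corn oil and 13.18, 12.25 and 11.13 under DCB, a rise of 2.89 ± 0.48 or 7.41-fold (adjusted p = 0.00212). Hsp90aa1, the inducible cytosolic HSP90, rose from 11.94, 11.75 and 11.56 to 13.60, 13.11 and 12.71 (1.39 ± 0.33, adjusted p = 0.0444). Both were highest on DCB replicate 1 and lowest on replicate 3. The Hspb1 call held whichever array was left out. That of Hsp90aa1 was kept only without DCB replicate 3, with differences of 1.16 to 1.48 in the other cases. Of 16 chaperones tested, 2 rose, 8 lay wholly above the controls and the median was 0.45. Hspe1, the mitochondrial HSP10, differed by 0.51 ± 0.15 (adjusted p = 0.145), and Hsph1 by 0.96 ± 0.45. Off the list, Ahsa1, which activates HSP90, rose by 0.80 ± 0.17, and Cct3 and Cct7, subunits of the chaperonin that folds actin and tubulin, by 0.89 ± 0.16 and 0.65 ± 0.12. Ahsa1 kept its call in only 1 of the 6 cases with an array left out, and the mean of its probe sets gave 0.36 (adjusted p = 0.258). Cct3 and Cct7 kept theirs in 5. The tubulin gene Tubb4b read 10.17, 9.995 and 10.12 and then 12.04, 11.72 and 11.01 (1.497 ± 0.34, adjusted p = 0.036). Its call was lost when any array other than DCB replicate 3 was left out, and the mean of its probe sets gave 0.63.

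The paired unit of heat shock elements, GAANNTTC, was searched in the same promoter windows. This search was added after the values had been seen. The unit was found in 9 of 12 chaperone promoters, in 7.13% of tested genes with an entry and in 4 of the 66 genes that rose (6.06%). Hspb1 carried 2 such units, 110 and 90 bases before the start, in overlapping windows that are shown because this was the largest chaperone rise. Since the motif reads the same on both strands, no strand is given for it.
Hspb1, chr5:135887782-135887829, plus strand: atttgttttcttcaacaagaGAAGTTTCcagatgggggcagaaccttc
Hspb1, chr5:135887802-135887849, plus strand: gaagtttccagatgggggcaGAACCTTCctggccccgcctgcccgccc

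Genes of the unfolded protein response of the endoplasmic reticulum were mostly higher under DCB, and none was called. Of 25 ER stress and ATF4 genes, 23 had positive differences and 11 lay wholly above the controls, with a median of 0.51. The median relative to controls was 0.86 on DCB replicate 1, 0.16 on replicate 2 and 0.42 on replicate 3. Sdf2l1, an ER chaperone cofactor, showed the pattern at 11.39, 9.45 and 10.45 against 8.59 to 9.08 in controls (1.66 ± 0.59, adjusted p = 0.248). Creld2 followed the same order at 11.33, 9.46 and 10.46 (1.41 ± 0.59). Psat1, a serine synthesis enzyme and ATF4 target, differed by 1.85 ± 0.50 (adjusted p = 0.0995), with DCB replicate 2 at 6.21 inside the control range of 5.16 to 6.53. Dnajc3 and Pdia4, a co-chaperone and a disulfide isomerase, differed by 0.53 ± 0.18 and 0.79 ± 0.31.

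Fetal and epithelial genes included the fifth largest rise. Afp, the fetal plasma protein, read 6.34, 6.26 and 5.90 under corn oil and 10.80, 8.16 and 8.40 under DCB, a rise of 2.95 ± 0.54 (adjusted p = 0.00519). Replicate 1 exceeded the other DCB arrays by more than 2 log2 units. The Afp call was lost without that array (2.11, adjusted p = 0.0635), and the mean of its probe sets gave 1.61. Krt18, a keratin of hepatocytes, rose by 1.03 ± 0.21, though not without DCB replicate 1 (0.86) or corn oil replicate 3 (0.85). Its partner Krt8 differed by 0.84 ± 0.25 without a call (adjusted p = 0.138). These were 2 calls among 11 oncofetal and progenitor genes.

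Replication genes varied among the DCB arrays. None of 29 cell cycle and DNA replication genes was called, and the median was 0.24. Only 4 of the 29 lay wholly above the controls, near the share of 10.2% over all genes tested. Mcm6, a subunit of the replicative helicase, read 10.04, 7.90 and 9.10 under DCB and 7.26, 7.29 and 7.10 under corn oil (1.80 ± 0.52, adjusted p = 0.129). Mcm5 read 9.39, 7.29 and 8.18 against 6.68 to 6.92 (1.51 ± 0.54). As with the ER genes, replicate 1 was highest and replicate 2 lowest. Cdkn1a, the p53-responsive cell cycle inhibitor, read 9.12 on DCB replicate 1 and 6.77 and 6.18 on the others, against 6.08 to 6.41 in controls (1.15 ± 0.59). Metallothioneins, small metal-binding proteins, had large differences with large spread. Mt2 read 12.28, 9.58 and 13.27 against 8.18 to 8.96 (3.07 ± 0.79, adjusted p = 0.0716) and Mt1 13.18, 11.14 and 13.98 against 10.09 to 10.61 (2.43 ± 0.80). All DCB arrays were above all controls in both, and replicate 2 was lowest. The neutrophil gelatinase-associated lipocalin gene Lcn2 read 10.87, 10.88 and 9.88 against 7.62 to 8.19 (2.71 ± 0.78, adjusted p = 0.126). Over 24 acute phase genes the median difference was 0.04 and none was called.

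The remaining called rises are on none of the lists described so far, and those named here were chosen after their values were seen. Nol3, an inhibitor of apoptosis, read 6.15, 6.00 and 6.33 under corn oil and 8.16, 8.59 and 7.59 under DCB (1.95 ± 0.35). Entpd5, a nucleotide diphosphatase of the ER, rose by 1.26 ± 0.20, Aprt, an adenine salvage enzyme, by 1.04 ± 0.19, and Zwint, a kinetochore protein, by 1.07 ± 0.17. These 4 kept their calls whichever array was left out. Cltb, a clathrin light chain, rose by 0.83 and Creg1 by 0.80, and both also kept their calls in all 6 cases. Anxa7, an annexin, rose by 0.78 and kept its call in all 6 cases, but the mean of its probe sets gave 0.30 (adjusted p = 0.31). The splicing factor gene Snrpa1 rose by 1.04 and kept its call in 5 of the 6 cases. Mvp, the major vault protein (0.93), Thoc5, an mRNA export factor (0.58), and the ribosome factor Eif6 (0.69) kept theirs in 3, and the mean of the Eif6 probe sets gave 0.43 (adjusted p = 0.0971). Ddx39a, an RNA helicase (0.97), Nelfe, a transcription pausing factor (0.62), and the linker histone H1f2 (1.37) kept theirs in 2, and the mean of the H1f2 probe sets gave 0.93 (adjusted p = 0.0567). Lmna, the lamin A/C gene (0.94), Tmpo, a lamin-binding protein (0.65), Rad51c, a DNA repair protein (0.58), and Tbcb, a tubulin folding cofactor (0.75), kept theirs in only 1. The mean of all probe sets gave 0.40 for Lmna (adjusted p = 0.217) and 0.39 for Tmpo (adjusted p = 0.113). For 51 of the 94 called genes another probe set was above the filter, and in 45 of them every such probe set had the same sign. The exceptions were Zwint, Cds2, Ahsa1, Anxa7, Tmpo and Dynll2.

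The falls were few and small. Glul, glutamine synthetase, is confined to the hepatocytes around the central vein and fell the most. It read 13.20, 13.16 and 13.06 under corn oil and 10.46, 12.83 and 11.75 under DCB. The controls lay close together, while the DCB arrays spanned more than 2 log2 units (-1.46 ± 0.34, adjusted p = 0.0361). Without DCB replicate 1 the difference was -0.85 (adjusted p = 0.318), and the call stood in 1 case only, when DCB replicate 2 was left out. In bulk liver, fewer cells of a type and less RNA per cell cannot be told apart.

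The pericentral genes were mixed. Of the 18 tested 1 fell, 6 lay wholly below and 1, Cyp1a2, wholly above the controls, 3 had positive differences and the median was -0.33. Slc1a2, a glutamate carrier, read 6.34, 10.004 and 9.01 under DCB and 10.88, 10.73 and 10.32 under corn oil (-2.19 ± 0.61, adjusted p = 0.111). Oat, ornithine aminotransferase, read 10.18, 12.71 and 12.16 against 13.10 to 13.58 (-1.58 ± 0.46, adjusted p = 0.126). Rhbg, an ammonium transporter, read 6.31, 7.40 and 6.97 against 7.52 to 7.65 (-0.69 ± 0.38). In each, replicate 1 was lowest and replicate 2 nearest to the controls, as for Glul. These examples were named for their small p or after their values were seen, and other members did not share that order. Periportal and urea cycle genes had a median of -0.07 over 15 genes with none called.

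The gene 1700001C19Rik read 8.35, 8.04 and 8.07 under corn oil and 6.76, 6.83 and 7.24 under DCB (-1.21 ± 0.25). Hyi, hydroxypyruvate isomerase, went from 9.14, 9.30 and 9.52 to 7.94, 8.48 and 8.63 (-0.97 ± 0.20), and Slc17a5, the lysosomal sialic acid exporter sialin, from 9.26, 9.51 and 9.57 to 8.36, 8.42 and 8.96 (-0.87 ± 0.17). DCB replicate 1 was the lowest in these 3 genes. Prxl2a, a peroxiredoxin-like protein, read 11.29, 11.20 and 11.02 and then 10.21, 10.08 and 10.69 (-0.84 ± 0.19). Amy1, an amylase, read 12.14, 12.13 and 12.35 and then 11.002, 11.49 and 11.63 (-0.83 ± 0.18). Tle4, a transcriptional corepressor, went from 8.44, 8.25 and 8.30 to 7.44, 7.78 and 7.79 (-0.66 ± 0.14). Tgfbr1, a receptor for TGF-beta, read 9.72, 9.62 and 9.62 and then 9.13, 9.12 and 8.82 (-0.63 ± 0.12). The mean of all Tgfbr1 probe sets, of which the others were under the filter, gave -0.19 (adjusted p = 0.484). Parva, an integrin-linked adaptor, read 8.87, 8.93 and 8.54 and then 7.84, 8.23 and 8.38 (-0.63 ± 0.15). Mettl26 read 11.95, 11.91 and 12.08 and then 11.17, 11.61 and 11.28 (-0.63 ± 0.14). The other 6, Agap3, Cryz, Pcca, Clcn4, Fxyd1 and Fuca1, fell by 0.48 to 0.59. No fall kept its call through all 6 cases with an array left out. The mean of all probe sets also ended the calls of Prxl2a (-0.52), Tle4 (-0.34), Parva (-0.36), Mettl26 (-0.43), 1700001C19Rik (-0.83), Glul (-1.57), Agap3 (-0.32), Cryz (-0.52), Pcca (-0.34) and Fuca1 (-0.22).

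Several groups of hepatocyte genes were mostly lower under DCB without a single call. In the complement and coagulation list 25 of 35 genes lay wholly below the controls, 34 had negative differences and the median was -0.36. The arrays were even: the median relative to controls was -0.39, -0.34 and -0.39 on the DCB arrays. C1s1, a complement protease, differed by -0.59 ± 0.15 (adjusted p = 0.0718), Klkb1, prekallikrein, by -0.72 ± 0.18 (adjusted p = 0.0721), and Proc, protein C, by -0.46 ± 0.12 (adjusted p = 0.0837). Male-biased liver genes, which depend on the male pattern of growth hormone, were negative in 13 of 13 cases with 8 wholly below the controls and a median of -0.55. There DCB replicate 3 was lowest, with a median of -1.24 against -0.35 and -0.66 on replicates 1 and 2. Serpina12, an adipokine made in male liver, illustrates it at 11.11, 10.39 and 8.03 against 11.58 to 12.33 (-2.20 ± 1.37). Of 13 growth hormone and IGF axis genes 8 lay wholly below the controls. Egfr differed by -1.40 ± 0.50, Ghr, the growth hormone receptor, by -0.59 ± 0.22, and Igf1 by -0.39 ± 0.16, with no overlap between the groups in these 3 genes.

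Among fatty acid synthesis genes the third control stood apart from the others. Of 17 fatty acid synthesis genes 16 had negative differences and the median was -0.56, but corn oil replicate 3 lay at -0.51 relative to the control mean, beside -0.63, -0.72 and -0.35 on the DCB arrays. Elovl6, a fatty acid elongase, read 11.60, 11.43 and 10.27 under corn oil and 9.48, 9.47 and 10.06 under DCB (-1.43 ± 0.84). Acaca, acetyl-CoA carboxylase, read 10.06, 9.99 and 8.99 and then 8.63, 8.23 and 8.95 (-1.08 ± 0.62). For both genes corn oil replicate 3 was closer to the DCB arrays than to the other controls. The same array differed the opposite way in Cyp4a14, a fatty acid hydroxylase under PPAR alpha control: 7.08, 7.03 and 12.53 under corn oil and 11.92, 12.35 and 12.26 under DCB. Its difference of 3.29 ± 1.24 was not called (adjusted p = 0.287), and corn oil replicate 3 was the highest of the 6 arrays. For glucose production and use, 8 of 16 genes lay wholly below the controls, with a median of -0.29. G6pc, glucose-6-phosphatase, read 10.47, 10.02 and 9.91 against 11.54 to 11.88 (-1.58 ± 0.57) and Gys2, liver glycogen synthase, 9.98, 10.29 and 10.98 against 11.34 to 11.44 (-0.97 ± 0.31). No gene was called among the lists for bile acids, cholesterol, PPAR alpha targets, steroid hormones, carboxylesterases, plasma carriers, the circadian clock, nuclear receptors, p53 and early growth, glucocorticoid response, female-biased expression and housekeeping, whose medians lay between -0.31 and 0.28.

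Immune lists held no called gene. All 25 interferon-stimulated genes had negative differences, 9 were wholly below the controls and the median was -0.30. Over these genes the median relative to the control mean was -0.09, -0.53 and -0.29 on the DCB arrays and 0.12, 0.07 and -0.21 on the controls, so DCB replicate 1 lay inside the control range. MHC class II genes had a median of -0.34 over 7 genes with none wholly below the controls. The median was -0.0072 over 6 lymphocyte markers and 0.11 over 5 neutrophil markers, 3 of which were positive. The median signals of these 2 lists were 5.18 to 5.425 and 5.49 to 5.91. That is near the array medians of 5.39 to 5.42, so no direction was read from them. Irf7, a regulator of interferon genes, read 7.79, 7.52 and 7.07 against 8.004 to 8.48 (-0.82 ± 0.24, adjusted p = 0.13). Of the Kupffer cell and macrophage markers 5 of 12 lay wholly below the controls, 11 of 12 had negative differences, and the median signal over the 12 was 9.80 to 10.03 on corn oil and 9.26 to 9.82 on DCB arrays. Clec4f, a lectin restricted to Kupffer cells, read 9.63, 9.44 and 9.38 against 9.98 to 10.19 (-0.63 ± 0.21, adjusted p = 0.207). Cd68, a lysosomal marker of macrophages, read 9.64, 6.87 and 7.49 against 6.98 to 7.14 in controls (0.96 ± 0.54). The part of these markers in the immune gene values was not tested.

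**Figure D4:**
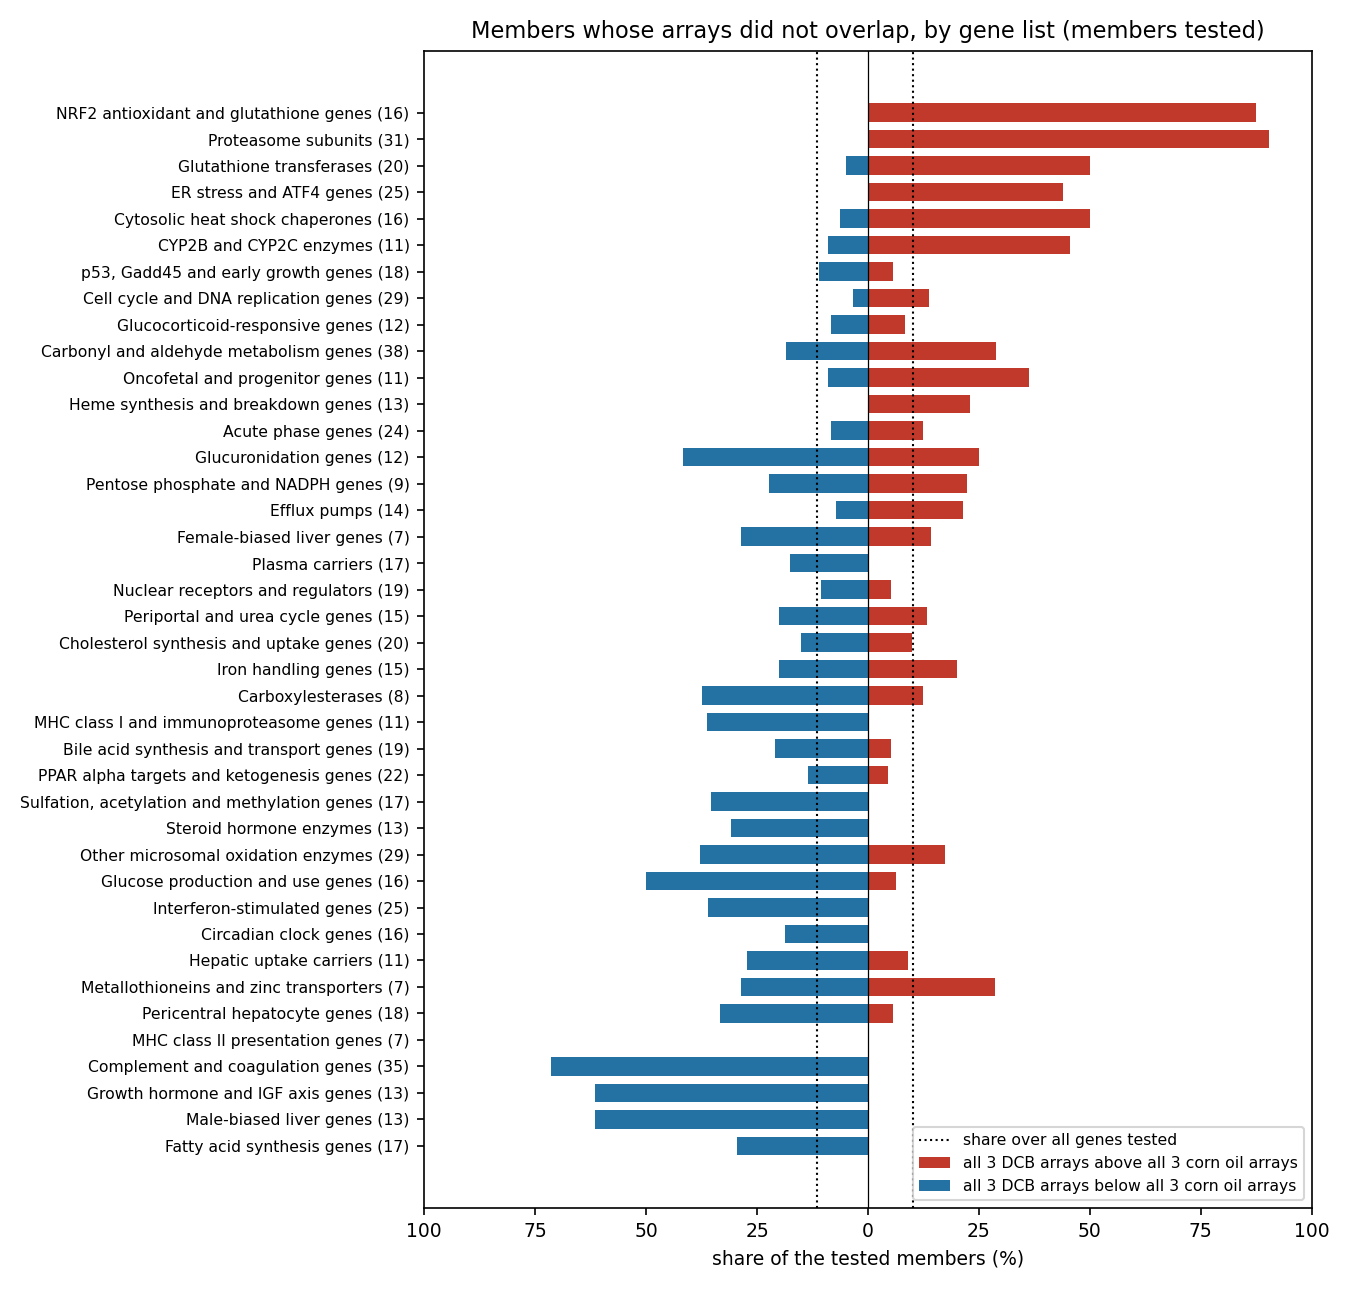
Share of tested members (x axis, %) whose 3 DCB arrays all lay above (red, right) or all below (blue, left) the 3 corn oil arrays. Each gene list is shown except CYP3A enzymes, AHR target genes and housekeeping genes, with the number of members tested in brackets. The dotted lines give the shares over all genes, 10.2% above and 11.5% below; NRF2 and proteasome genes extend farthest to the right, and complement, growth hormone and male-biased genes farthest to the left.

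The same genes were then read in the other genotypes, each with its own treated and control arrays. In hCAR/hPXR mice, where 978 genes were called for DCB (7.64%), 77 of the 78 rises had positive differences and 67 were called higher, and all 16 falls were negative with 10 called lower. The exception was Guca1b, at 0.64 ± 0.11 in wild type and -0.07 with the human receptors. Without CAR and PXR, where 15 genes were called (0.117%), 73 of the 78 rises had positive differences and 13 were called, and all 16 falls were negative with none called. Over all genes, differences were positive for 46.8% and 51.3% in these 2 genotypes. The median difference over the 78 rises was 0.94 in wild type, where the genes had been chosen, 0.90 with the human receptors and 0.52 without either receptor. DCB arrays of CARko/PXRko mice correlated less with each other than wild type ones did, with mean correlations of 0.938 to 0.958 against 0.983 to 0.985. The values were also low for CARko/PXRko corn oil arrays (0.948 to 0.971) and hCAR/hPXR DCB arrays (0.951 to 0.970). Markers of some other tissues were higher in the DCB comparison of CARko/PXRko mice. The median difference was 0.76 over 16 skeletal muscle, 1.89 over 3 brown fat and adipocyte, 1.44 over 2 adrenal cortex and 0.82 over 5 squamous epithelium markers. It was -0.09 for exocrine pancreas, -0.37 for red blood cell, -0.09 for intestine and 0.04 for kidney tubule markers. The part of these markers in the CARko/PXRko differences was not tested.

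**Figure D5:**
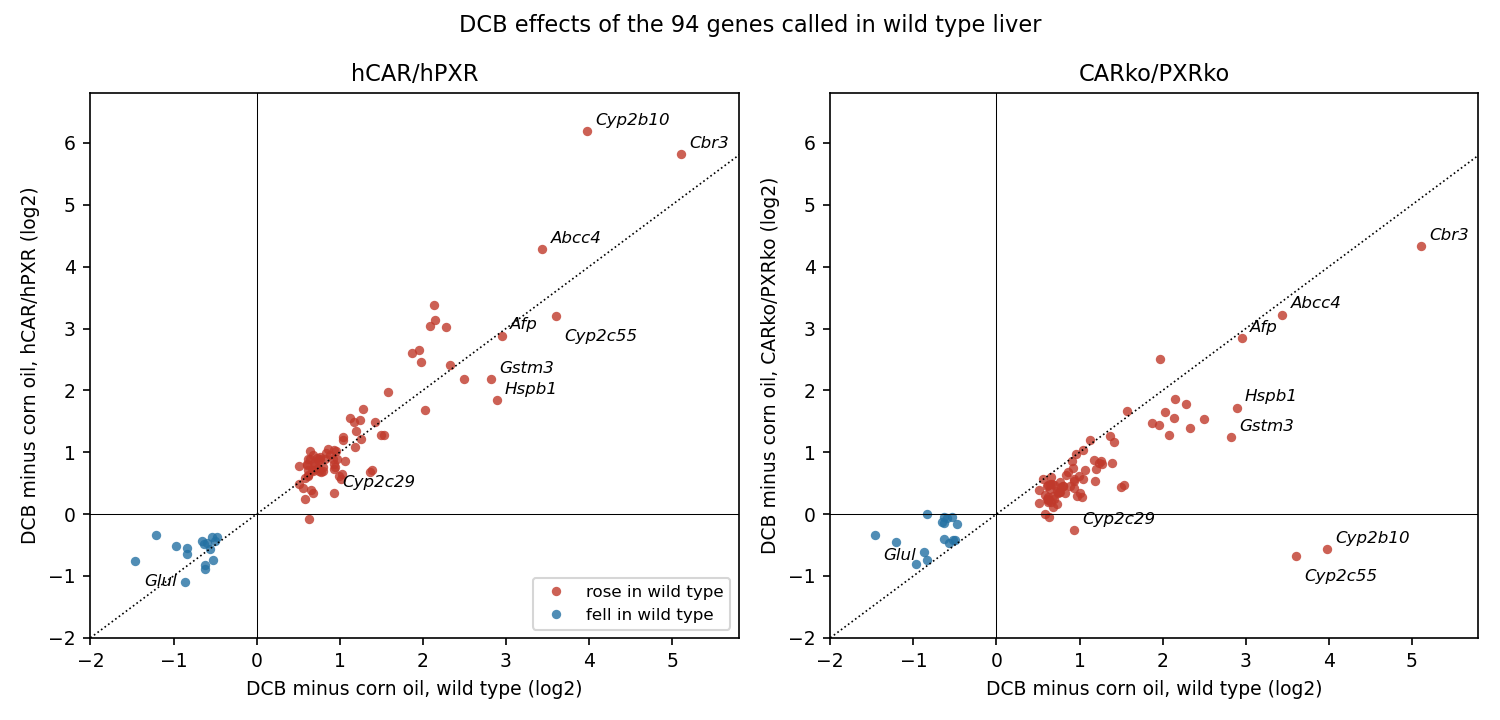
Difference between DCB and corn oil (log2) in wild type liver (x axis) against that in hCAR/hPXR (left, y axis) and CARko/PXRko liver (right, y axis) for the 94 genes called in wild type. Red points rose and blue points fell in wild type and the dotted line marks equal differences; Cyp2b10, Cyp2c55 and Cyp2c29 are below 0 in CARko/PXRko mice while Cbr3, Abcc4 and Afp lie near the line.

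The P450 genes were among those that differed most between wild type and CARko/PXRko mice. Cyp2b10 differed by 3.98 in wild type, 6.20 with the human receptors and -0.56 without the receptors, Cyp2c55 by 3.60, 3.20 and -0.68, and Cyp2c29 by 0.93, 0.34 and -0.26. The test of the difference itself gave 0 of 12795 genes (0%) against CARko/PXRko mice at an adjusted p under 0.05, with 324 genes at an unadjusted p under 0.05. Cyp2c55 (4.28 ± 0.72) and Cyp2c29 (1.19 ± 0.21) came nearest, at an adjusted p of 0.0524 each, followed by Kank3 (-1.12 ± 0.26), Guca1b (0.68 ± 0.16) and Cyp2b10 (4.54 ± 1.09), with adjusted p-values of 0.856 to 0.875. Without DCB replicate 3 of wild type 3 genes were called, without DCB replicate 1 of CARko/PXRko 2, and without DCB replicate 2 of wild type 1. The level of Cyp2c55 without DCB also differed: the mean was 7.84 ± 0.02 (SD, n = 3) in wild type livers and 10.02 ± 0.08 in those without the receptors under corn oil. Of the 94 genes, 31 had an unadjusted p under 0.05 for this difference, against 2.53% of all genes, and the 94 had been chosen by the wild type effect that enters it.

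Other large rises were also called without the receptors. Cbr3 differed by 5.11 in wild type and 4.33 without the receptors, Abcc4 by 3.44 and 3.23, Afp by 2.95 and 2.84, Cbr1 by 1.58 and 1.67 and Slc48a1 by 2.02 and 1.65. Each was called in both. Srxn1, Gstm2, Ugdh, Aprt, Abhd4, Psmb5, Fbxo2 and Fth1 were the other 8 rises called without the receptors. Among gene lists, the NRF2 median was 0.67 in wild type, 0.80 with the human receptors and 0.51 without the receptors. That of the proteasome was 0.61, 0.71 and 0.26, and that of ER stress genes 0.51, 0.20 and 0.03. CYP2B and CYP2C genes had medians of 0.43, 0.67 and -0.68. These list values were not tested against each other.

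Against hCAR/hPXR mice 0 genes (0%) were called for a difference of effect, with 398 at an unadjusted p under 0.05. The smallest p-values belonged to Guca1b (0.71 ± 0.16), Hsd17b6 (3.54 ± 0.85), Pik3c3 (0.66 ± 0.16), Ciapin1 (-0.82 ± 0.21) and Mtbp (-0.88 ± 0.24), all with an adjusted p of 1. Hsd17b6, an androgen-metabolising enzyme, differed by 1.02 in wild type and -2.52 in hCAR/hPXR mice, but its wild type controls alone ranged from 9.06 to 12.17. Nqo1 and Srxn1 had larger differences with the human receptors, 3.39 and 3.14 against 2.14 and 2.15 in wild type mice, and neither gap was called (unadjusted p = 0.0209 and 0.00983).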

How the data were processed

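Liver RNA from 30 arrays in 10 groups of 3 was measured, of which the 3 DCB and 3 corn oil arrays of wild type mice are described. The authors deposited log2 expression values per probe set, made with RMA per the submitters' processing notes; its version is not given in the sources used here. Of 45037 probe sets, 34945 were annotated to a single gene, and each of 18193 genes was represented by the one with the highest mean over the 30 arrays. The 12795 genes above the array median on at least 3 arrays were tested with limma 3.58.1 in R 4.3.3, in one fit of all 10 groups (20 residual degrees of freedom) with Benjamini-Hochberg adjustment. The fit was tested on simulated data with independent normal noise of one spread per gene. The simulated arrays did not differ in quality, so that test does not cover unequal arrays. Differences of effect between genotypes were contrasts of the same fit. Promoter windows and gene names are from RefSeq (GRCm38.p6). The members and gene lists were chosen with earlier results of these data known. Named were called genes, up to 6 members per list by smallest p, a fixed set of receptor and marker genes, and the 5 smallest p-values of each genotype contrast; a few list members were added after their values were seen. Filters, normalization, probe set choice, variance model, arrays in the fit and a replicate block were varied. The same-numbered corn oil and DCB arrays did not deviate together, so numbers were not used as pairs.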

Additional observations from a re-analysis of the deposited data

Results flagged for a closer look

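Probe sets annotated to several genes or to none were outside the comparisons above. Of 3700 such probe sets above the filter, 8 were called for DCB in wild type liver by limma at an adjusted p under 0.05, 4 higher and 4 lower, and 2 of each direction were on probe sets annotated to several genes. They carry no gene name here.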

How the results depend on the processing

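The wild type count of 94 called genes was recomputed with other filters, an added fold threshold, other normalizations, probe set rules and variance models. It was also recomputed with the replicate block, on the compared groups alone and without the 4 arrays with muscle transcripts. In these alternatives the count lay between 83 and 134, with 2 exceptions. An added 2-fold threshold gave 37 genes, and array weights, whose estimate did not reach its convergence tolerance, gave 969 (534 higher, 435 lower). Leaving out 1 of the 6 arrays gave 37 to 115 genes. Fitted on the compared groups only, 110 genes were called (74 higher, 36 lower), of which 45 were among the 94. The replicate block gave 107 genes, 90 of them among the 94; same-numbered arrays had correlations of 0.0017, 0.022 and -0.14 in their deviations, so the numbers gave no pairing, and the block gave 0 calls in both genotype contrasts. The difference of effect against CARko/PXRko mice went from 0 calls to 2 with the 75th percentile filter, 1 with quantile normalization, 2 with the mean of probe sets, 2 with trend and robust variance and 3 with array weights, and from 0 to 3 with an array left out; against hCAR/hPXR mice it was 0 in every alternative. Nr1i2 changed sign to -0.12 with the mean of its probe sets, to -0.32 without corn oil replicate 2 and to -0.06 without DCB replicate 2, within a range of -0.32 to 0.33 over the arrays left out. The cause of these changes was not tested. No called gene changed sign in the 16 alternatives with a wild type fit, and 24 of the 94 stayed called in all of them. Only the other normalizations and the mean of probe sets could have changed a sign, because the arrays of the called genes did not overlap. With 3 arrays a group, the number of arrays limits the precision.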
